A study of Mus musculus with 4 samples.

Results

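Peaks of chromatin recovered with transketolase were examined in a stretch of the promoter, the 1.5 kb that begins 0.5 kb past the transcription start site. The chosen regions were the deposited peaks of the promoter class whose centre lay over 500 and up to 2000 bp downstream of the listed start site. There were 1212 such downstream promoter peaks among 49058 peaks in all. The induced list held 719 of them among 30791 peaks (2.34%, 95% Wilson interval 2.17 to 2.51), assigned to 706 genes. The control list held 493 among 18267 peaks (2.70%, 2.47 to 2.94), assigned to 486 genes. Class and distance alone chose the peaks, so their strength played no part in the choice.

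The peaks came from chromatin immunoprecipitation with sequencing (ChIP-seq) of mouse retina, from mice in which VEGF overexpression serves to model age-related macular degeneration. The induced group was retina of Tet-opsin-VEGFA mice after induction, and the control group was retina of noninduced Tet-opsin-VEGFA mice, so that the transgene was carried by both groups. By its name the transgene is driven through the promoter of opsin, which is active in photoreceptors, while the samples were whole retina. For each condition, 2 retinas were collected and 1 ChIP library was set against 1 input library. The labels name no strain, no age and no agent or length of induction, nor do they say whether the 2 retinas came from separate mice. With 1 ChIP library per condition, no difference between the lists could be tested against a spread between animals. All intervals below are 95% Wilson intervals, and they cover counting error only.

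Transketolase is an enzyme of the pentose phosphate pathway, which makes NADPH and ribose phosphate, and it was measured here as a protein recovered with chromatin. DNA just past a start site holds the first exon and the beginning of the first intron in a long gene. In a short or intronless gene the same stretch can hold much of the coding sequence and can reach the transcript's end. Genes of this compact build include many that cells keep strongly active, such as those of ubiquitin, cofilin and ribosomal proteins, and genes that respond quickly to stress, such as those of HSP70 and the AP-1 factors.

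Few of these peaks touched a promoter window, which the choice of centres over 500 bp downstream largely fixes for the listed start site. Control peaks were also longer, with a median of 743 bp against 556 bp in the induced list. Some peaks were placed otherwise by another listed start site. RefSeq promoter windows, 250 bases before to 50 after a start site on GRCm38.p6, were touched by 22 induced peaks (3.06%, 2.03 to 4.59) and 37 control peaks (7.51%, 5.49 to 10.2). A window of the assigned gene was touched by 8 induced and 22 control peaks. Some peaks were listed for several transcripts. By another of these, some centres lay at most 500 bp downstream of the start site, or upstream of it. This held for 72 induced (10.0%, 8.03 to 12.4) and 61 control peaks (12.4%, 9.75 to 15.6). Windows of 5 genes are printed to show how far such peaks extended, with the bases inside the peak in capitals and the others in lower case. Ubb and Hspa1b are among the highest folds of the induced list, Tmsb10 is an induced peak that covered a whole window, and Fth1 and Atp5g2 are control peaks.
Ubb, chr11:62551481-62551780, plus strand, induced peak: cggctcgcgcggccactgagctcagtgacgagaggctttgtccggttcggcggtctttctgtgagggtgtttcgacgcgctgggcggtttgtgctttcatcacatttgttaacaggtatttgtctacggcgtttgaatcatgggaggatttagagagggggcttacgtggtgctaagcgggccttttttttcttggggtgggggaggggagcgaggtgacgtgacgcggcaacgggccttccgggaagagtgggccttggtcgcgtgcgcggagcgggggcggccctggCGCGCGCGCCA
Hspa1b, chr17:34959189-34959488, minus strand, induced peak: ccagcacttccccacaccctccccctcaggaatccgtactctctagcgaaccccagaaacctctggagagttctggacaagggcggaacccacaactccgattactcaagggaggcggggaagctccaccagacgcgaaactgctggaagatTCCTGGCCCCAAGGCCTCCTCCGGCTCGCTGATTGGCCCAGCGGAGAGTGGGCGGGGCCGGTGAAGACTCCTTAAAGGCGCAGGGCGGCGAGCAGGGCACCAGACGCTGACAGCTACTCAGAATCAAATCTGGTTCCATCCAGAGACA
Tmsb10, chr6:72958183-72958482, minus strand, induced peak: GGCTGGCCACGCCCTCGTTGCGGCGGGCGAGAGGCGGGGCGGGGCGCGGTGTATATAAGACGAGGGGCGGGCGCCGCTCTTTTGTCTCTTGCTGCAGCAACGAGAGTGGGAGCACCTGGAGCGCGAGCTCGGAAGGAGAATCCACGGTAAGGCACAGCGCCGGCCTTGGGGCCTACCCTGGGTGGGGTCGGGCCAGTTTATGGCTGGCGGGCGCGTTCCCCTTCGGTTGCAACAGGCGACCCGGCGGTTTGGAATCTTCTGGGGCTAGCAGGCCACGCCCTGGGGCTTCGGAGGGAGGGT
Fth1, chr19:9982396-9982695, plus strand, control peak: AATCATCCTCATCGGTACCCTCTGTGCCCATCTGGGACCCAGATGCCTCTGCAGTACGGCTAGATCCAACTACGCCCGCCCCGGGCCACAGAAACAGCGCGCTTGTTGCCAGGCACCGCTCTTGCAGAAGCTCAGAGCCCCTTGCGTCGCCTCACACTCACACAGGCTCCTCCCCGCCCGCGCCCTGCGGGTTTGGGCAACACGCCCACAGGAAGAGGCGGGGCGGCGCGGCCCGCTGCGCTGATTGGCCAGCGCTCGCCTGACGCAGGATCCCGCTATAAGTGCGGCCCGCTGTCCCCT
Atp5g2, chr15:102670998-102671297, minus strand, control peak: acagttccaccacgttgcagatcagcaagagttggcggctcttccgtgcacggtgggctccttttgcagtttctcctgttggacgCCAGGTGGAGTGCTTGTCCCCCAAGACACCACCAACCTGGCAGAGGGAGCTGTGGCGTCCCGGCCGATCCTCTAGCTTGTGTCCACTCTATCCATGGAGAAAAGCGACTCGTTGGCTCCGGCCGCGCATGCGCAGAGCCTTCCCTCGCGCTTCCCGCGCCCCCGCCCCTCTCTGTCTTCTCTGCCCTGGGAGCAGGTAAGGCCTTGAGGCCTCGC
The Ubb peak took in only the last 11 bases of its window, which lie past the start site. All of this peak lay inside the transcript, from 40 to 1401 bp of 1483 bp. The Hspa1b peak took in 148 bases. These held GC boxes (letters GGGCGG, both strands searched) whose first bases lay 49 and 16 bases before the start site, and a CCAAT box on the opposite strand 67 bases before it. A match to the heat shock element GAANNTTC began 104 bases before the Hspa1b start and lay across the peak's edge. The Tmsb10 window also held such a match, inside its peak, beginning at base 2 counted from that window's start site. GC boxes lay inside the peak in the Tmsb10, Fth1 and Atp5g2 windows as well. In Tmsb10 and Fth1 the window belonged to another start site of the same gene than the one from which the authors had measured the distance. The Atp5g2 window shared 215 bases with a control peak that the authors had assigned to Mir688, a microRNA gene nearby.

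By number, downstream peaks outnumbered upstream ones in the induced list and not in the control list. The induced list held 719 promoter peaks 0.5 to 2 kb downstream, 556 at the same distance upstream and 503 within 500 bp of the start site. The control list held 493, 516 and 538 in the same order. Of the peaks beyond 500 bp on either side, 56.4% (53.7 to 59.1) lay downstream in the induced list and 48.9% (45.8 to 51.9) in the control list. The induced share was 54.8% (51.9 to 57.6) without the peaks of at least 20-fold. Outside annotated pseudogenes the shares were 56.4% and 48.7%. With only peaks whose −log10 p reached 10 they were 74.5% (66.6 to 81.0) and 58.3% (32.0 to 80.7), and the control share, of only 12 peaks, then lay on the downstream side.

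**Figure D1:**
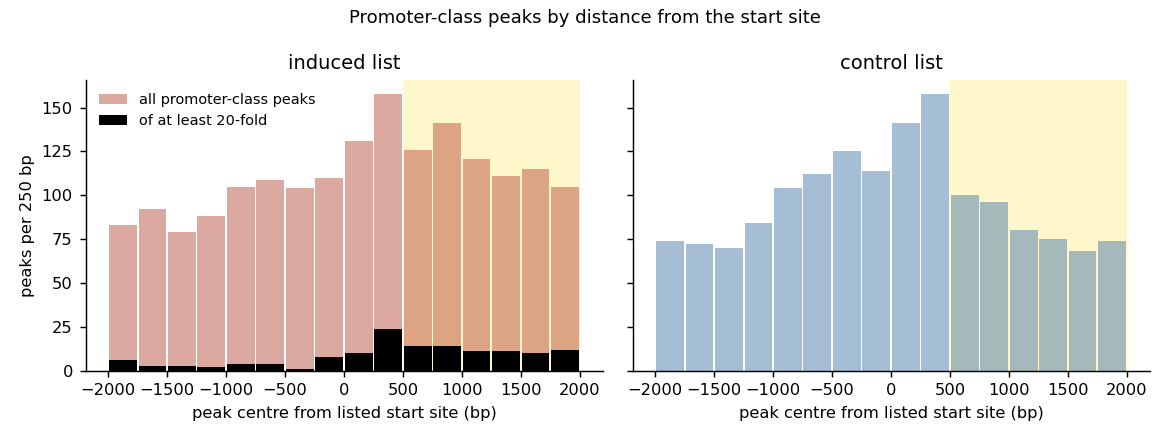
Promoter-class peaks per 250 bp of distance between the peak centre and the listed start site (x axis, bp), in the induced list (left) and the control list (right); black bars are peaks of at least 20-fold and the shaded range is 0.5 to 2 kb downstream. The control list has no black bars, and in the induced list they stand higher downstream (72 peaks in the shaded range) than at the same distance upstream (22 peaks).

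Within the range the peaks thinned slowly with distance. There were 267 induced peaks at 0.5 to 1 kb, 232 at 1 to 1.5 kb and 220 at 1.5 to 2 kb. The control list held 196, 155 and 142 in the same order. Strength did not follow the distance: 10.5%, 9.48% and 10.0% of the induced peaks in these ranges reached 20-fold, with overlapping intervals. At the edges of the range, the nearest induced peak inside was that of Mrgpra1 (504 bp, 7.52-fold, 10 tags) and the nearest outside that of Slco2b1 (499 bp, 11.81-fold, 11 tags). At the far edge they were 4931428F04Rik at 2000 bp (8.59-fold, 12 tags) and the intron peak of Aif1 at 2010 bp (9.66-fold, 10 tags). In the control list, Ror1 at 502 bp (5.86-fold, 17 tags) stood inside and Nup35 at 498 bp (5.82-fold, 14 tags) outside. At the far edge Rgr stood inside at 1993 bp (6.84-fold, 20 tags) and an intron peak of Cblb outside at 2003 bp (5.38-fold, 17 tags). Peaks next to the edges were thus ordinary members of their lists.

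Most downstream peaks were weak, and a small number in the induced list were very strong. Fold is the authors' enrichment of a peak over background. It is read within each list only, since the background differed between the lists. Induced folds ran from 5.22 to 292.07 with a median of 9.53, against 8.59 over all induced peaks. Control folds ran from 3.91 to 17.41 with a median of 5.86, the same as over all control peaks. Induced peaks held 10 to 847 tags with a median of 11, and control peaks 14 to 67 with a median of 18. Many therefore sat close to the lowest tag count listed, which was 10 in the induced and 14 in the control list. The median −log10 p was 5.31 and 4.78, and the median false discovery rate 0.23% and 3.79%, in induced and control peaks.

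In the induced list, 72 of 719 downstream peaks reached 20-fold (10.0%, 8.03 to 12.4), where 3.48% of all induced peaks did. These 72 strong peaks held 44.4% of the tags of the induced downstream peaks. Peaks of at least 20-fold held 49.2% of the tags in exon peaks and 37.7% within 500 bp of the start site. They held 22.1% in the upstream range and 20.7% over all induced peaks. At least 50-fold was reached by 24 (3.34%), against 1.44% of all induced peaks. The share was 8.55% (6.41 to 11.3) within 500 bp of the start site and 3.96% (2.63 to 5.92) in the upstream range. Exon peaks stood at 15.6% (150 of 963), intron peaks at 1.82% and intergenic peaks at 2.78%. Outside pseudogenes the shares were 8.66% (6.79 to 11.0) downstream, 6.07% (4.26 to 8.58) within 500 bp and 2.24% (1.29 to 3.87) upstream, against 1.36% over all induced peaks. Downstream and upstream intervals did not overlap, while those of the downstream and core peaks did. No control downstream peak reached 20-fold, 0 of 493, which allows a share of up to 0.609% (3 counts of the total) or, by the Wilson interval, 0.773%. That threshold was passed by 0.00547% of all control peaks, a sole peak outside the promoter class. At 10-fold the control count was 3 (0.609%, 0.207 to 1.77), against 0.438% over all control peaks.

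Strong induced peaks lay mostly on short transcripts. The median span of the assigned transcript was 2373 bp for the 72 strong peaks, 12897 bp for the other induced peaks and 17119 bp for the control peaks. On transcripts of up to 5 kb, 65 of 257 induced downstream peaks were strong (25.3%, 20.4 to 30.9), and on longer ones 7 of 462 (1.52%, 0.736 to 3.09). The 65 include 6 peaks named for a short RNA gene but centred past its end, in another gene. Without any peaks centred past the transcript's end the share was 59 of 193 (30.6%, 24.5 to 37.4). The 7 belonged to Sspn, Bcl2l1, Polr1d, Cavin1, Stk11, Gm10874 and Hsp90aa1, the last with a transcript of 5360 bp. Outside pseudogenes and on transcripts of 2 to 5 kb, the strong share was 28.5% (21.6 to 36.5) downstream, 7.27% (2.86 to 17.3) within 500 bp and 3.12% upstream. On transcripts of up to 2 kb it was 14.9% (9.21 to 23.1) downstream and 21.3% (13.6 to 31.9) within 500 bp, intervals that overlap. On transcripts near 2 kb most of the length falls inside the downstream range, and toward 5 kb less of it. Distance and place in the gene therefore cannot be fully told apart on short transcripts.

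**Figure D2:**
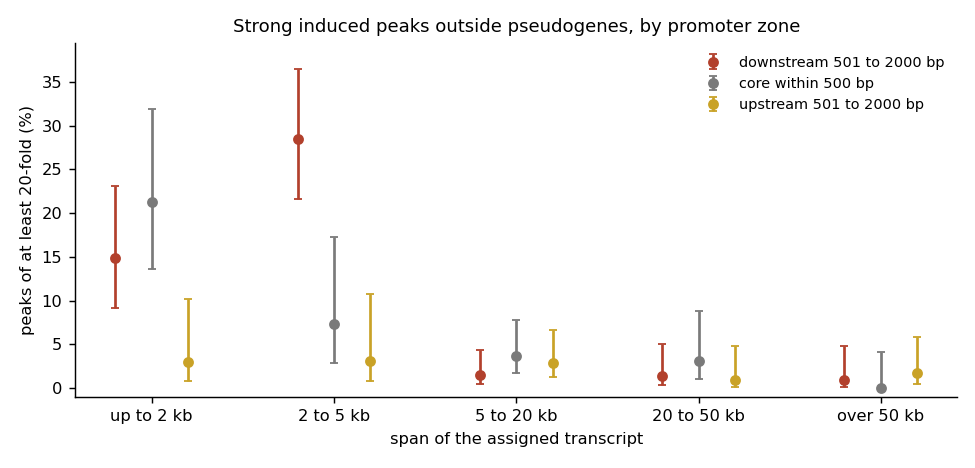
Share of induced promoter peaks outside pseudogenes that reached 20-fold (y axis, %) by span of the assigned transcript (x axis), for peaks 0.5 to 2 kb downstream, within 500 bp of the start site and 0.5 to 2 kb upstream; points are shares and bars 95% Wilson intervals. The downstream share peaks at 28.5% on transcripts of 2 to 5 kb, and above 5 kb all zones lie below 4%.

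**Figure D3:**
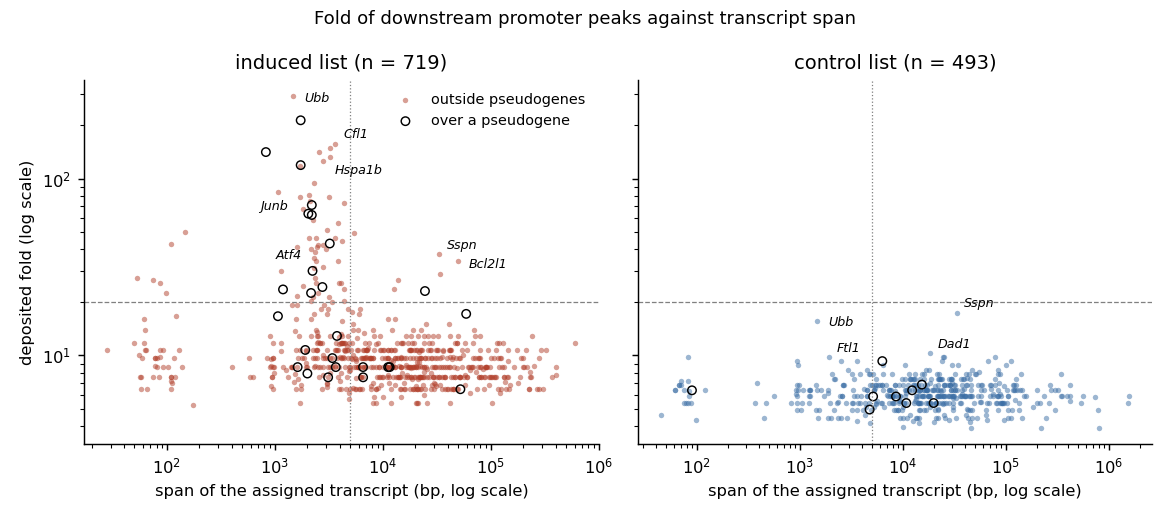
Deposited fold (y axis, log scale) against the span of the assigned transcript (x axis, bp, log scale) for each downstream promoter peak of the induced list (left) and the control list (right); open circles are peaks over an annotated pseudogene, the dashed line marks 20-fold and the dotted line 5 kb. Nearly all induced peaks above the dashed line stand left of the dotted line (65 of 72), and no control peak lies above it.

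Few strong peaks touched the start site, which the choice of peaks largely fixes. A peak centred over 500 bp past the start site reaches back to it only if the peak is long. Only 4 of the 72 strong peaks reached back to the listed start site, those of Hspa1b, Aldoart2, Tmsb10 and Ccdc85b. Of the other 647 induced peaks, 0 did. In the induced list 78.0% (74.9 to 80.9) of downstream peaks began over 500 bp past the start site, and in the control list 68.2% (63.9 to 72.1). Among strong peaks alone the share was lower, 61.1% (49.6 to 71.5), and among the other 647 induced peaks 79.9% (76.6 to 82.8). These shares fell as peak length rose, with a median length of 550 bp in those 647 peaks and 743 bp in control peaks. Strong peaks were the longest, with a median of 807.5 bp against 556 bp over all induced downstream peaks. Their place along the transcript varied. On transcripts of up to 5 kb, with peaks past the transcript's end left out, the centre was nearer the end than the start in 26 of 59 strong induced peaks (44.1%, 32.2 to 56.7), in 41 of 134 weaker induced peaks (30.6%, 23.4 to 38.8) and in 28 of 70 control peaks (40.0%, 29.3 to 51.7), with overlapping intervals.

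Ubb, the polyubiquitin gene, gave the highest fold of the induced downstream peaks. Its induced peak (chr11:62551770-62553131, mm10) held 847 tags at 292.07-fold, centred 720 bp past the start site of a 1483 bp transcript. It spanned the transcript from 40 to 1401 bp. Ubb was also the second-ranked control peak (chr11:62552044-62553435), with 60 tags at 15.74-fold. The control peak began later, at 314 bp, and ran past the transcript's end to 1705 bp. The other 3 ubiquitin precursor genes held no downstream peak in either list.

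Outside pseudogenes, Cfl1 and Slc25a5 gave the next highest folds. Cfl1, which encodes the actin-severing protein cofilin, held an induced peak of 159 tags at 157.34-fold (chr19:5492061-5492822) and a further exon peak of 161 tags at 64.52-fold. Slc25a5, the gene of a mitochondrial ADP/ATP carrier, held 169 tags at 149.26-fold (chrX:36796808-36797529). Neither gene held a control peak within its transcript. Of 34 actin, tubulin and actin-binding genes, 7 held an induced downstream peak (20.6%), against 2.69% of all 26216 RefSeq genes, and 1 a control one (2.94%), against 1.85%. A strong induced peak was held by 4 of the 34 (11.8%), against 0.267% of all genes. The 4 strong ones were Cfl1, Tmsb4x (75.16-fold, 74 tags), Tuba1b (39.73-fold, 37 tags) and Tmsb10 (30.07-fold, 44 tags), which encode cofilin, 2 thymosins that bind actin monomers, and an alpha tubulin. The weaker ones were Pfn1 at 10.1-fold, Actr3 at 7.52-fold and Tpm4 at 6.44-fold, and the control one was Tuba4a at 4.63-fold. Tuba1b had its main induced peak farther along, an exon peak of 448 tags at 206.17-fold. Of 34 mitochondrial carrier and ATP synthase genes, only 2 held an induced peak, Slc25a5 and Slc25a4 (12.67-fold), which is 5.88% against 2.69% of all genes. Atp5g1 (4.4-fold) alone held a control one (2.94%, against 1.85%).

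H3f3b, which encodes the replacement histone H3.3, held an induced peak of 208 tags at 141.74-fold (chr11:116022444-116023679) and a control peak of 17 tags at 4.4-fold over part of the same stretch. Eef1a1, the gene of the elongation factor that delivers tRNA to the ribosome, held an induced downstream peak of 162 tags at 132.08-fold (chr9:78479297-78480488). The next Eef1a1 peak, in the last part of the transcript, was stronger, with 296 tags at 162.46-fold. The control list placed its Eef1a1 peak at that end, with 29 tags at 10.18-fold, and none in the downstream range. Pcbp1, an intronless gene of a poly(rC)-binding protein, held 273 tags at 78.97-fold across 131 to 2091 bp in the induced list and 29 tags at 5.89-fold across 370 to 1461 bp in the control list.

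Genes of the translation machinery recurred among the induced peaks. Of 87 cytosolic ribosomal protein genes, 12 held an induced downstream peak (13.8%, against 2.69% of all genes) and 1 a control peak (1.15%, against 1.85%). The 4 strong ones were Rpl15 (78.39-fold, 74 tags), Rpl36a (25.77-fold, 27 tags), Rpl37 (22.55-fold, 23 tags) and Rps23 (21.62-fold, 24 tags), and the lowest was Rps10 at 6.14-fold. The control one, assigned to Rpl41 (5.38-fold, 21 tags), was centred past its transcript, within Zc3h10. Of 36 translation factor genes, 4 held an induced peak (11.1%, against 2.69% of all genes) and 3 a control peak (8.33%, against 1.85%). The induced ones were Eef1a1, Eif1 (39.79-fold), Eif5a (20.4-fold) and Eif5 (11.63-fold), and the control ones Eef1d (7.33-fold), Pabpc4 (6.35-fold) and Eif1 (4.89-fold).

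Chaperone genes held several of the strong peaks. Of 25 heat shock chaperone genes, 6 held an induced downstream peak (24.0%, against 2.69% of all genes) and 0 a control one (against 1.85%). Hspa1b, which encodes inducible HSP70, held 338 tags at 125.63-fold (chr17:34956858-34959336), and its peak covered the gene from 98 bp before the start to 2380 bp of a 2810 bp transcript. The neighbouring copy Hspa1a, nearly identical in sequence, held 163 tags at 31.72-fold (chr17:34970079-34971842). No source used here says how reads that fit several places were handled, so the split of tags between these copies is uncertain. Hsp90aa1, the gene of an HSP90 chaperone, held 49 tags at 49.39-fold, with an exon peak of 121 tags at 76.24-fold farther along. Dnajb1, a co-chaperone of HSP70, held 25 tags at 25.77-fold, and Cct3 (9.66-fold) and Hspa2 (7.52-fold) held weaker peaks.

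The immediate early genes Junb and Jun, which encode AP-1 subunits, held induced peaks of 67.65-fold (68 tags) and 21.48-fold (43 tags). Jun also held a control peak of 5.38-fold (22 tags) that overlapped it, and Btg1 an induced peak of 12.47-fold. In all, 3 of 28 immediate early genes held an induced peak (10.7%, against 2.69% of all genes) and 2 a control peak (7.14%, against 1.85%), the other being Nr4a3 at 4.63-fold. Of 47 endoplasmic reticulum stress genes, 4 held an induced peak (8.51%, against 2.69% of all genes) and 0 a control peak (against 1.85%). Atf4, the transcription factor of the integrated stress response, stood alone among them above 20-fold, with 49 tags at 38.66-fold (chr15:80256180-80256928). A following exon peak of Atf4 held 24 tags at 24.7-fold. Sdf2l1 and Edem1 held 9.66-fold and Ero1l, listed as Ero1a in the gene table, 7.52-fold.

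**Figure D4:**
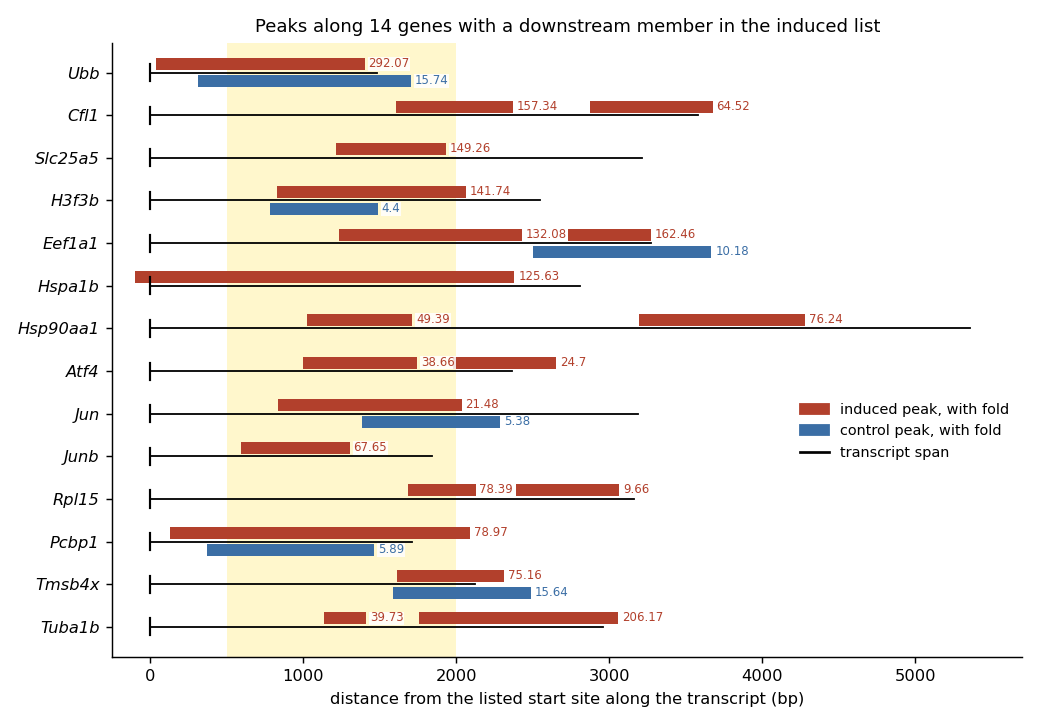
Peaks along 14 genes with an induced downstream peak, by distance from the listed start site along the transcript (x axis, bp); red bars above each line are induced peaks, blue bars below it control peaks, numbers their deposited folds, black lines the transcripts, and the shaded range is 0.5 to 2 kb. The Ubb, Hspa1b and Pcbp1 peaks cover most of their transcripts, while those of Cfl1, Eef1a1, Hsp90aa1, Atf4 and Tuba1b are followed by another peak toward the transcript's end.

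Peaks also followed one another along some of these genes. No matching counts were made for genes with weaker peaks or for all genes, so the counts here have no comparison. Of the 70 genes with a strong induced downstream peak, 17 held another induced peak within the transcript and 7 another one of at least 20-fold. Those 7 include the pseudogene Gm5643, and Cavin1, whose other peak was of the upstream class (64.43-fold). A control peak lay within the transcript of 12 of the 70, none of at least 20-fold. The highest were those of Sspn (17.41-fold), Ubb (15.74-fold) and Tmsb4x. At Tmsb4x the induced peak held 74 tags at 75.16-fold, and a control exon peak over it 38 tags at 15.64-fold.

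Some strong peaks lay over copies of other genes. Annotated pseudogenes lay under 26 induced downstream peaks (3.62%, 2.48 to 5.25, against 4.87% of all induced peaks) and 9 control ones (1.83%, 0.963 to 3.43, against 1.62%). Among the 72 strong downstream peaks they lay under 12 (16.7%, 9.80 to 26.9), against 63.0% of all 1073 strong induced peaks. The leading ones were Gm5643 with peaks of 213.68-fold (231 tags) and 119.19-fold (111 tags), Rplp2-ps1, a ribosomal pseudogene, at 141.27-fold (161 tags), and Gm4750 on chromosome X, with peaks of 70.87-fold and 62.28-fold. Among genes not annotated as pseudogenes, Aldoart2 (118.12-fold, 205 tags) and Aldoart1 (80.73-fold, 118 tags) are retrogene copies of the aldolase gene Aldoa. Psme2b (83.76-fold, 111 tags), whose synonyms include Psme2-like, is a copy of a proteasome activator gene, and Ppp1ccb (94.49-fold, 148 tags) lists Ppp1cc, a phosphatase gene, among its synonyms. Sequence shared between a gene and its copies makes the place of tags uncertain on both sides. Of the 70 genes with a strong induced downstream peak, 10 have a pseudogene that carries their symbol, and for 6 of them, Ubb, Slc25a5, Eef1a1, Rpl15, Rpl36a and Rps23, an induced peak also lay over such a pseudogene. Chromosome X held 14 induced downstream peaks (1.95%, against 1.37% of all induced peaks) and 1 control peak (0.203%, against 0.575% of all control peaks). Of the 72 strong downstream peaks it held 8 (11.1%, 5.74 to 20.4), against 5.31% of all strong induced peaks.

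Sspn, which encodes the membrane protein sarcospan, led the control downstream peaks. At this site the induced peak held 117 tags at 37.37-fold (chr6:145932624-145933137) and the control peak 67 tags at 17.41-fold (chr6:145932729-145933257). For another Sspn transcript the distance of the control peak was −1129 bp, so that the site lies downstream of one listed start and upstream of another. Dad1, which encodes a subunit of the oligosaccharyltransferase, followed Sspn and Ubb with 29 tags at 10.26-fold. Below 10-fold, at 9.77-fold, stood Trib2 (35 tags), Plxnb1 (31 tags), Gramd1b (30 tags), Mir7075 (25 tags) and Ftl1 (23 tags). Eid1 (44 tags), Gm3086, Olfr891 and Qk stood at 9.29-fold. Among these, Ubb, Mir7075, Ftl1, Eid1 and Olfr891 have a transcript of up to 5 kb and the other genes a longer one.

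A list in which control peaks were more numerous was that of antioxidant and ferritin genes. There, 1 of 28 genes held an induced downstream peak (3.57%) and 4 a control peak (14.3%, against 1.85% of all genes). Ftl1, the ferritin light chain, held an induced peak of 10.74-fold (10 tags) and a control peak of 9.77-fold (23 tags) that did not overlap. Fth1, the ferritin heavy chain, held a control peak of 8.31-fold (23 tags), Gpx1, a glutathione peroxidase, one of 6.39-fold (27 tags), and Hmox2, a heme oxygenase, one of 5.29-fold (25 tags). For another Fth1 transcript the distance of the Fth1 peak was −66 bp. The histone list, by symbol, held 68 genes. An induced peak lay at 1 of them (1.47%, against 2.69% of all genes), the linker histone gene H1f0 (35.43-fold, 56 tags). Control peaks were assigned to 3 (4.41%, against 1.85%), H4c6 (7.02-fold), H2bc4 (5.4-fold) and H4c2 (4.4-fold). All 3 control peaks were centred past the end of the listed transcript, though the H2bc4 peak was still centred within the H2bc4 gene. The replacement histone gene H3f3b is not matched by this list's symbols.

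Lists for the enzyme's own pathway and for photoreceptors were small, and their counts stood near the shares over all genes, 2.69% in the induced and 1.85% in the control list. None of 14 pentose phosphate pathway genes held a downstream peak in either list. Of 22 glycolysis genes, Aldoa held an induced peak of 11.63-fold (4.55% of the list). Of 36 phototransduction and outer segment genes, Rp1, which encodes a protein of the photoreceptor axoneme, held an induced peak of 12.89-fold (2.78% of the list). Of 36 VEGF, hypoxia and angiogenesis genes, Egln2 (13.96-fold), Pdgfb (8.59-fold) and Egln1 (8.59-fold) held an induced peak. That is 8.33% of the list, against 2.69% of all genes, and none held a control peak (against 1.85%). Egln1 and Egln2 encode prolyl hydroxylases that mark HIF for degradation, and Pdgfb a growth factor that recruits pericytes. Of 31 retinal transcription factor genes, Sox2 (13.53-fold), Hes1 (12.89-fold) and Isl1 (8.59-fold) held an induced peak (9.68% of the list, against 2.69%). Atoh7 (4.4-fold) held a control peak (3.23%, against 1.85%). The induced shares of the VEGF and the retinal transcription factor lists were thus above that of all genes, but each rests on 3 genes. A ChIP peak does not measure expression, so these lists do not check the tissue label.

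Among markers of other retinal cells, no list held more than 1 gene with a downstream peak in either list. These counts are too small to be set apart from the 2.69% and 1.85% of all genes. Induced peaks lay at Hes1 of 15 Müller glia markers, Isl1 of 13 bipolar cell markers and Rgs5 (6.44-fold) of 15 endothelial and pericyte markers. Control peaks lay at Apoe (5.43-fold, 58 tags) of the Müller glia markers, Calb1 (6.84-fold) of 18 amacrine and ganglion cell markers and Rgr (6.84-fold) of 14 pigment epithelium markers. None of 16 microglia and macrophage markers held a downstream peak in either list. Olfactory and vomeronasal receptor genes, which serve smell, held an induced peak in 16 of 1479 (1.08%) and a control peak in 9 (0.609%), with the highest at 12.89-fold in the induced list. Both shares are below those over all genes.

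**Figure D5:**
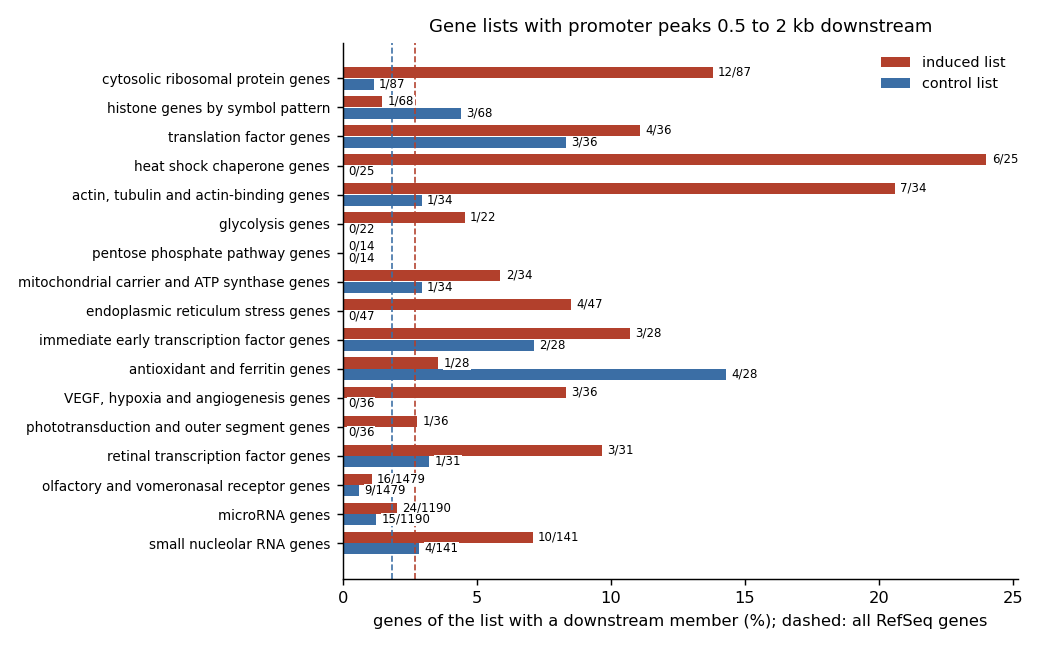
Share of the genes of each list that hold a downstream promoter peak (x axis, %) in the induced list (red) and the control list (blue), with the counts at the bars; dashed lines are the shares over all RefSeq genes, 2.69% in the induced and 1.85% in the control list. Among the lists drawn, heat shock chaperone (24.0%), actin and tubulin (20.6%) and ribosomal protein genes (13.8%) have the longest induced bars. Antioxidant and ferritin genes (14.3%) have the longest control bar. Ubiquitin precursor genes and the retinal cell marker lists are not drawn. The share of ubiquitin precursor genes, from Ubb alone, was higher than any bar named here in both peak lists.

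Overlaps between the lists were about as rare among downstream peaks as among all peaks. Induced and control peaks overlapped by at least 1 bp in 13 pairs, 1.81% of the induced and 2.64% of the control downstream peaks. With any peak of the other list, 18 induced (2.50%, against 1.63% of all induced peaks) and 17 control ones (3.45%, against 2.73% of all control peaks) overlapped. Of the 72 strong induced peaks, 9 overlapped a control peak (12.5%, 6.72 to 22.1), and of the other 647, 9 did (1.39%, 0.734 to 2.62). Among all 1073 strong induced peaks the share was 9.51%, inside the first of these intervals. The pairs were at Sspn, Ubb, Pnrc2, Cops9, Trappc8, Ssr3, Pcbp1, Hnrnph3, Jun, Tdg, Eif1, H3f3b and Mir340.

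The 7 pairs with a strong induced peak were those of Sspn, Ubb, Pcbp1, Jun, Eif1, H3f3b and Mir340. Eif1, a factor of start codon selection, held 44 tags at 39.79-fold in the induced list and 18 tags at 4.89-fold in the control list. In the other 6 pairs both peaks were under 20-fold. Pnrc2 held 14 tags at 9.66-fold in the induced and 27 tags at 8.31-fold in the control list, and Cops9, a subunit of the COP9 signalosome, held 13 tags at 11.81-fold in the induced and 21 tags at 7.82-fold in the control list. Trappc8, Ssr3 and Tdg held 10 or 11 tags in the induced list and 15 to 22 in the control list. By gene, 20 held a downstream peak in both lists (2.83% of the induced and 4.12% of the control genes). The 7 not covered by an overlapping pair were Asb8, Ftl1, Nlrx1, Prkar1a, Rbl1, Rplp2-ps1 and Sipa1l3.

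Some downstream peaks lay past the end of the gene that named them. The centre was past the transcript's end in 64 induced (8.90%, 7.03 to 11.2) and 38 control peaks (7.71%, 5.67 to 10.4), and inside another gene in 39 and 23 of these. All 6 strong ones of the induced list carried the name of a small RNA or short predicted gene and lay in a host or neighbouring gene. Gm24148 stood for a peak in Ncl, the nucleolin gene (49.72-fold, 61 tags), and Mir7-1 for one in Hnrnpk, an RNA-binding protein gene (42.95-fold, 71 tags). Snord37 stood for a peak in the elongation factor gene Eef2 (27.49-fold, 28 tags) and Snord14c for one in Hspa8, the constitutive HSP70 gene (25.77-fold, 26 tags). Mir6951 and Mir340 stood for peaks in Azin1 (26.84-fold, 40 tags) and Rnf130 (22.55-fold, 27 tags). The symbols thus name a small RNA while the peak lies in a coding gene.

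Weaker induced peaks and control peaks gave further examples, though not all lay in a coding gene: 24 of the 64 induced and 14 of the 38 control peaks past a transcript's end were centred in no protein-coding or lncRNA gene. Snora3 named an induced peak within Rpl27a (16.82-fold, 28 tags). In the control list Mir7075 named a peak in Terf2 (9.77-fold), Snord82 one in Ncl (6.84-fold) and Mir7654 one in Arglu1 (6.84-fold, 33 tags). Of 1190 microRNA genes 24 were assigned an induced peak (2.02%) and 15 a control peak (1.26%), and of 141 small nucleolar RNA genes 10 (7.09%) and 4 (2.84%), where 2.69% of all genes held an induced and 1.85% a control peak.

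MicroRNA hairpins lay inside 3 induced downstream peaks, all of them assigned to a coding gene. Their mature sequences follow from RefSeq, with the seed, bases 2 to 8, in capitals, because the peak covers the microRNA itself and not only its surroundings.
mmu-miR-686: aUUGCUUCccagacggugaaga
mmu-miR-7654-3p: cGAGCGGGagcgcgccucgucc
mmu-miR-7678-5p: uUACAAGGgcuggauaggaau
mmu-miR-7678-3p: uUUCCUUAcuuucucuuguagc
The hairpin of Mir686 lay in the peak of Psmb5, a catalytic proteasome subunit gene (chr14:54616518-54616850, 34.36-fold, 32 tags). Mir7654 lay in a peak of Arglu1 (12.89-fold, 14 tags), the gene whose control peak carried the name of that microRNA. Mir7678 lay in a peak of Slpi (10.74-fold, 12 tags). No seed was shared among these sequences.

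The promoters of genes with these peaks were rich in GC boxes. GGGCGG stood on either strand in 47 of 68 RefSeq promoter windows of genes with a strong induced peak (69.1%, 57.4 to 78.8). It stood in 315 of 600 windows of genes with a weaker induced peak (52.5%, 48.5 to 56.5), in 271 of 499 windows of genes with a control peak (54.3%, 49.9 to 58.6) and in 35.7% of all 32851 windows. The TATA box TATAAA stood in 8.82%, 9.50%, 7.62% and 13.6% in the same order, and CCAAT in 39.7%, 35.8%, 33.7% and 37.4%. The heat shock element GAANNTTC stood in 7.35%, 5.67%, 6.81% and 7.86%. The cAMP response element TGACGTCA was not found in the 68 windows, and stood in 3.33%, 4.41% and 1.79% of the others. These are matches of letters in windows that nearly all lay outside the peaks, and windows of a gene with several start sites share sequence. The intervals treat such windows as separate. The 68 windows came from 50 genes, the 600 from 456 and the 499 from 370, so some genes with a peak had no window.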

How the data were processed

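The series held 4 ChIP-seq libraries of mouse retina, 1 ChIP and 1 input for induced and for noninduced (control) Tet-opsin-VEGFA mice. Methanol crosslinking, sonication and precipitation with a transketolase antibody are described per the labels' protocols. Bowtie2 2.2.7, FastQC and the build mm10 (GRCm38) are named, per the submitters' processing notes. No source used here names the peak caller. The authors called each ChIP library against the input of its own condition, per the file headers.

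Whole tag counts in each peak were deposited for the ChIP library, without normalization. The fold is a ratio over background, deposited by the authors for every peak, and the making of that background is not stated. A score of 10 times −log10 of the p-value was also deposited, and it is printed as −log10 p. The authors gave the false discovery rate in percent. Since the sheets list tags within peaks alone, the depth of the libraries is unknown. A further 3 sheets without values were not used.

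A peak listed on several lines, for several transcripts, was counted once, from its first line. The signed distance in the sheets is that of the peak centre along the transcript. The span of a transcript was the distance between the start and end sites that the authors gave on the peak's first line. Pseudogenes, promoter windows and microRNAs came from RefSeq tables of GRCm38.p6. These held the transcripts of 719 of 719 induced and 491 of 493 control downstream peaks. Shares have 95% Wilson intervals. Strong peaks are those of at least 20-fold. The scripts ran on Python 3.11.15 with matplotlib 3.10.9, numpy 2.4.6, pandas 2.3.3 and scipy 1.17.1. The choice of peaks, the overlaps and the intervals were tested on simulated data.

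Named genes were the 12 downstream peaks of highest fold in each list and the 12 outside pseudogenes, the peaks next to the edges of the range, overlapping pairs, genes found in both lists, and up to 4 genes per gene list and peak list. Genes named beyond that rule, among them those of peaks past a transcript's end and of strong peaks on long transcripts, were chosen after their values were seen. The peaks, the gene lists and the alternatives were chosen with earlier results of these data known. The alternatives were other distance ranges, other fold and p limits, any line of a peak, whole peaks beyond 500 bp, lists of equal size, stricter overlaps and leaving out pseudogenes.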

Additional observations from a re-analysis of the deposited data

How the results depend on the processing

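No paired analysis was possible because induced and control retina gave a sole ChIP library each, and so no library could be left out. Of the alternatives planned, 24 values stayed within 1.5 times the count or within the interval and 16 moved. Of those added after seeing the data, 10 stayed and 2 moved. With the range cut to 0.5 to 1 kb, 267 induced and 196 control peaks remained, and genes in both lists numbered 2, against 20, and 9 at 0.5 to 1.5 kb. At a −log10 p of at least 10, 102 induced and 7 control downstream peaks were left, 5.46% and 4.58% of their lists. The pseudogene share was then 13.7% of induced and 0% of control downstream peaks, the share of downstream over both sides 74.5% and 58.3% (32.0 to 80.7, of 12 peaks, where the control share over all peaks was 48.9%), and 2 genes were in both lists. With the induced list limited to its 18267 top peaks, the downstream share was 2.52%. At 10-fold 36.4% of induced downstream peaks were called, against 27.0% of all induced peaks, and at 50-fold 3.34%, against 1.44%. A reciprocal overlap of 50% left 7 pairs and centres within 200 bp left 4, against 13. The cause of these moves was not tested beyond the smaller numbers that a narrower range or limit leaves. The lowest tag counts listed, 10 in the induced and 14 in the control list, limit what a missing peak can show.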
